A study of Homo sapiens with 8 samples.

Results

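The RNAs described here are U3, U8 and U13, the C/D-type small nucleolar RNAs (snoRNAs) that act in the processing of ribosomal RNA precursors. They were taken by name as 7 genes of 62700 in GENCODE 44, namely the 5 U3 genes SNORD3A, SNORD3B-1, SNORD3B-2, SNORD3C and SNORD3D, the U8 gene SNORD118 and the U13 gene SNORD13. Crosslink sites on the strand of a gene, within its body or up to 5 nt upstream, were summed. All 7 genes passed the filter of at least 10 cDNAs in at least 2 libraries. The sites came from iCLIP, in which ultraviolet light joins proteins to the RNA they touch and the end of a cDNA marks the contact. Nuclei of U2OS, a human osteosarcoma line, were used without further treatment. The antibodies were a mouse one for dyskerin, which is the enzyme of H/ACA particles that makes pseudouridine, and a rabbit one for GAR1, which sits beside it in those particles. Each had controls with mouse immunoglobulin G (IgG), so the species of IgG and antibody matched for dyskerin but not for GAR1. The 4 groups held 2 replicates each. The study calls its iCLIP replicates independent experiments, and whether they were separate cultures is not stated in the sources used here, so p-values measure the spread between these libraries.

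The libraries differed widely in size, which bears on every value below. The dyskerin libraries held 1693951 and 1875459 cDNAs at significant sites, the GAR1 libraries 585454 and 1976518, and the first IgG libraries of the 2 sets 146514 and 295255. The second IgG libraries stood apart with 8183 (dyskerin set) and 10701 (GAR1 set). These totals count only what passed the site call in each library and are not its sequencing depth. H/ACA snoRNAs held 70.3% and 59.8% of the cDNAs in the GAR1 IgG libraries, against 71.2% and 69.8% in the GAR1 libraries. In the dyskerin libraries they held 11.5% and 14.6%, against 13.7% and 49.9% in its IgG libraries, so the second of these differed in composition as well as size. Their part in the comparisons with IgG was not tested. Of the transcripts examined for osteosarcoma or mesenchymal cells, COL1A1, SPARC, VIM and RUNX2 had sites in both dyskerin libraries and COL1A2 had none. PTPRC, EPCAM, ALB and KRT5, markers of other cell types, had none in any library.

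A C/D snoRNA is built around short boxes named C and D and is bound by fibrillarin, NOP56, NOP58 and SNU13. H/ACA snoRNAs carry another set of proteins, with dyskerin and GAR1 among them. Most C/D snoRNAs guide 2′-O-methylation, whereas U3 pairs with the ribosomal precursor and is required for the cleavages that release the small-subunit RNA. U8 is required for maturation of the large-subunit RNAs, and U13 pairs with the small-subunit RNA, where it guides acetylation of a cytidine by NAT10. None of the 3 is an H/ACA RNA, so their sites in dyskerin, GAR1 and IgG libraries were set side by side.

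The 5 U3 genes lie together on the short arm of chromosome 17 (GRCh38) and encode nearly the same RNA of 217 nt. SNORD3A spans chr17:19188016-19188714 on the plus strand in GENCODE, whose entry runs past the mature end in RefSeq. Over those 217 nt, SNORD3B-1, SNORD3B-2 and SNORD3C each differed from SNORD3A at 1 base and SNORD3D at 3, for an identity of 99.5% or, for SNORD3D, 98.6%. Counted from 1 at the 5′ end, with the SNORD3A base first, the substitutions are A78C in SNORD3B-1, A78C in SNORD3B-2, G108A in SNORD3C, and A4G, C53T and A78C in SNORD3D. The stretch from 43 to 112 is shown for each gene because it holds all but 1 of the differences, and the positions at which any copy differs are in capitals.
SNORD3A (chr17:19188058-19188127, plus strand): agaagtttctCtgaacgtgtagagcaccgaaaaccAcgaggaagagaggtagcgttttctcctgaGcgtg
SNORD3B-1 (chr17:19061954-19062023, plus strand): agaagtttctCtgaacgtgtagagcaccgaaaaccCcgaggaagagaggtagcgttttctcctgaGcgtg
SNORD3B-2 (chr17:19064025-19064094, minus strand): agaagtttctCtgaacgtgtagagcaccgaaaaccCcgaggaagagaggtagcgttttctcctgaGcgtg
SNORD3C (chr17:19190134-19190203, minus strand): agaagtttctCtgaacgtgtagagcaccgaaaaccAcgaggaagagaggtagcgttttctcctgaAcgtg
SNORD3D (chr17:19112525-19112594, minus strand): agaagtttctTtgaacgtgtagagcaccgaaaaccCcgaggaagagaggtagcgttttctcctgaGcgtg
A read from such a family can be placed on 1 gene only where it crosses a distinguishing base. The authors kept reads with several alignments, yet the deposited sites followed these bases. Against the primary chromosomes of GRCh38, an exact SNORD3A cDNA of at most 100 nt matched a single place only from position 8 to position 77, since it had to cover both 78 and 108. Such a cDNA needed 89 nt from a site at 19 and 31 nt from a site at 77. Of the 30522 SNORD3A cDNAs in the 8 libraries, 30521 lay at those positions, and none lay past the mature end. SNORD3B-1 and SNORD3B-2 have no such unique cDNA within the mature RNA. The level and the profile of U3 therefore cover the part of the RNA that could be aligned, and positions past 77 could not be assigned to SNORD3A alone by a cDNA of that length.

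SNORD3A held nearly all U3 cDNAs, from 95.95% in the second GAR1 library to 100% in the second GAR1 IgG library, a share that the alignable window also sets. The other copies were sparse. SNORD3B-1 had 91 and 122 cDNAs in the dyskerin libraries, 7 and 53 in the GAR1 libraries, 8 in the first dyskerin IgG library and none in the other IgG libraries. SNORD3B-2 had 19 and 23 with dyskerin, 8 and 50 with GAR1, 6 in the first dyskerin IgG library, 3 in the first GAR1 IgG library and none in the second IgG libraries. SNORD3C had 91 and 124 with dyskerin, 14 and 123 with GAR1, 10 and 3 in the dyskerin IgG set, and 6 and 0 in the GAR1 IgG set. SNORD3D was seen at the single position 52, the base before the substitution C53T, with 25 and 18 cDNAs for dyskerin, 5 in the first dyskerin IgG library and none elsewhere. The 281 cDNAs of SNORD3B-1 and 109 of SNORD3B-2 lay at positions where no exact cDNA is unique, as did 115 of the 371 cDNAs of SNORD3C, so their assignment to 1 copy is uncertain. The 5 copies are summed below as U3 where a level is given.

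In CPM, the cDNAs of an RNA per 1000000 peak cDNAs of the library, U3 stood at 5428 and 6591 in the dyskerin libraries, a mean of 6009.5 ± 822 (SD, n = 2). Its IgG controls held 16401 and 24074, a mean of 20238 ± 5426. Both dyskerin values thus lay below both IgG values, and the mean was 3.37 times higher with IgG. In the GAR1 libraries U3 stood at 1399 and 2826, or 2112 ± 1009, against 2442 and 4673 in their IgG controls, or 3557 ± 1577, and these 2 groups overlapped. U3 in the dyskerin libraries lay above U3 in both GAR1 libraries, by 2.85 times in the mean. The order of the means was thus dyskerin IgG, dyskerin, GAR1 IgG and GAR1, in which only the last 2 groups had overlapping values.

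**Figure D1:**
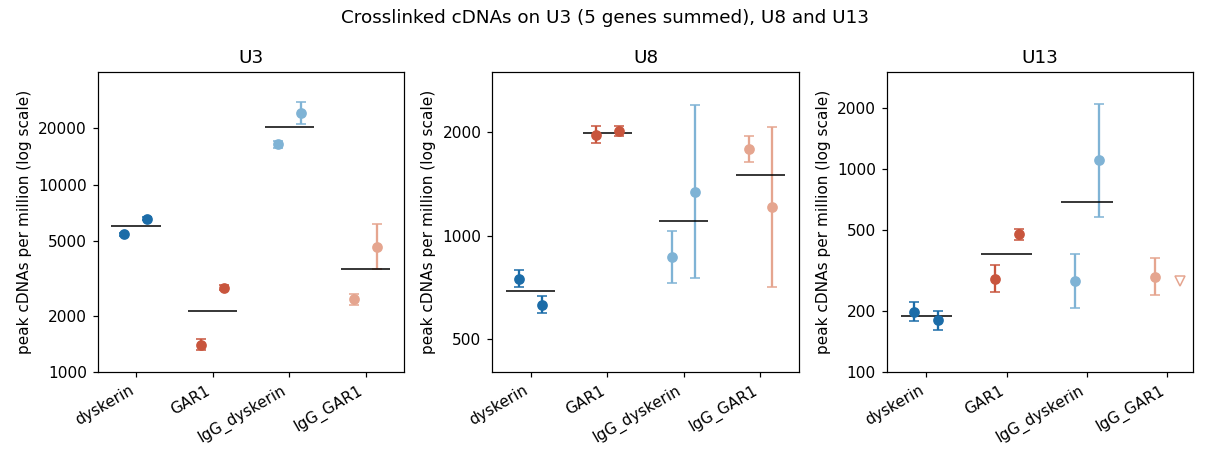
CPM (peak cDNAs of the RNA per 1000000 in the library, log scale) on U3 (5 genes summed), U8 and U13 in each library of the 4 groups. Points are libraries with 95% Wilson intervals that cover counting error only, horizontal lines are means of 2 libraries, and the open triangle marks the level of 3 cDNAs in the library where U13 was at 0. U3 was highest in the dyskerin IgG controls, and U8 was at 1966 and 2019 in the GAR1 libraries.

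**Figure D2:**
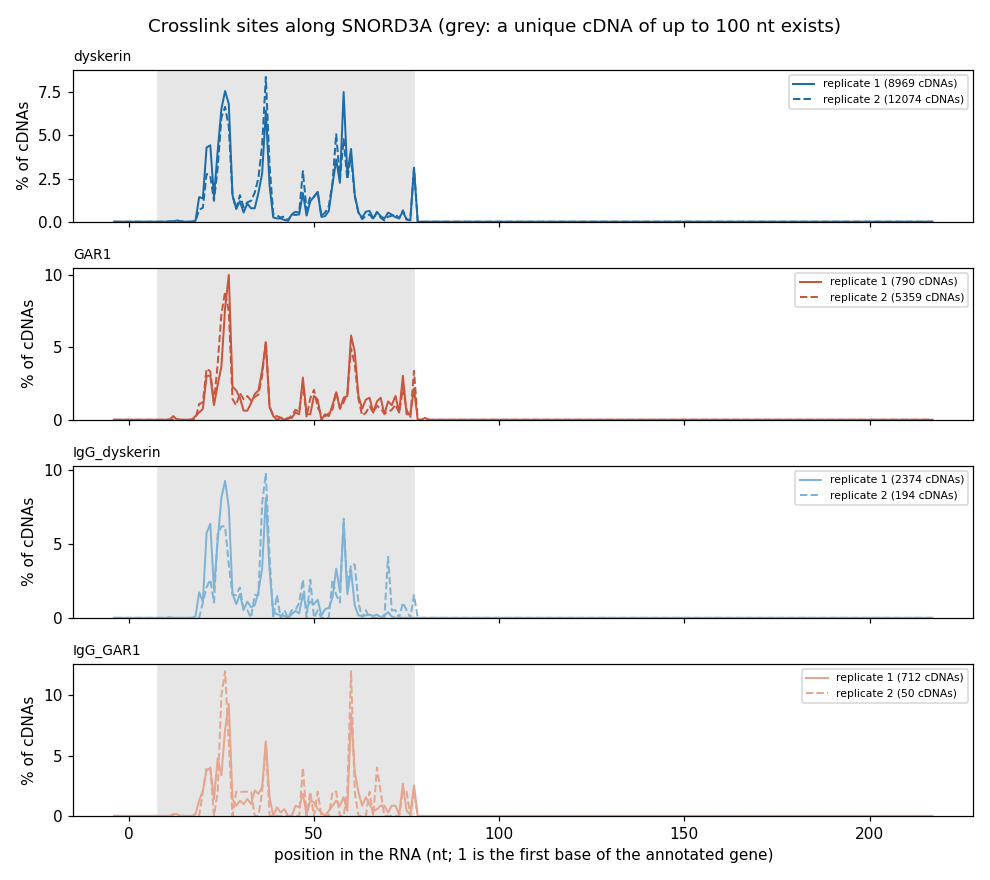
Share of SNORD3A cDNAs (%) at each position of the RNA (nt) in the libraries of the 4 groups, with solid and dashed lines for the 2 replicates. The grey band from position 8 to 77 marks where a cDNA of up to 100 nt could be unique, and 30521 of 30522 cDNAs lay inside it.

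Within the window that could be aligned, U3 sites fell mainly in the same few stretches in all groups, as the plot of SNORD3A sites by position shows. The first 84 bases of SNORD3A (chr17:19188016-19188099, plus strand) are printed with positions 19 to 77 in capitals, the stretch that held at least 99.4% of its cDNAs in every library.
SNORD3A: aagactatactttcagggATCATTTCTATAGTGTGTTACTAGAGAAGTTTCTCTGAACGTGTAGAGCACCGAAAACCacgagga
Positions 19 to 28 held 39.5% and 31.0% of SNORD3A cDNAs with dyskerin, 34.4% and 39.2% with GAR1, 48.5% and 29.9% in the dyskerin IgG set and 38.5% and 40% in the GAR1 IgG set. The groups overlapped there. Summed over both libraries, position 26 led with GAR1 and in the dyskerin IgG set and position 27 in the GAR1 IgG set. Position 37 led with dyskerin, with 577 and 1013 cDNAs, but in the first dyskerin library position 26 of SNORD3A had more, 679 against 577. Positions 35 to 38 held 13.01% and 18.7% with dyskerin, 11.6% and 11.1% with GAR1, 16.5% and 23.2% in the dyskerin IgG set and 11.9% and 8% in the GAR1 IgG set, so the dyskerin values lay above GAR1 but not above their own controls. Positions 55 to 61 held 24.1% and 22.4% with dyskerin and 17.3% and 15.2% with GAR1, so these proteins did not overlap there, and both dyskerin values also lay above the IgG libraries, at 18.6%, 21.1%, 16.99% and 20%. Positions 62 to 76 held 5.41% and 4.60% with dyskerin, 17.2% and 11.6% with GAR1, 1.68% and 8.25% in the dyskerin IgG set and 13.3% and 12% in the GAR1 IgG set. GAR1 and its controls were both above dyskerin there. These windows were drawn after the profile had been seen and were not tested.

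The last alignable base, position 77, had a site in all libraries but 1. It held 3.13% and 3.11% of SNORD3A cDNAs in the dyskerin libraries, 2.15% and 3.38% in the GAR1 libraries and 2.53% in the first GAR1 IgG library. In the second IgG libraries it held 3 of 194 (dyskerin set) and 1 of 50 (GAR1 set). In the first dyskerin IgG library it held 0 of 2374, which allows a share of up to 0.126%. SNORD3A sites of that library ended at position 71, so the gap was not limited to position 77. Almost every SNORD3A position was shared with IgG, since 99.7% to 99.9% of the cDNAs of the 4 antibody libraries lay at positions that were also called in at least 1 IgG library. Uridines, which ultraviolet light crosslinks most readily, held 41.0% to 44.9% of SNORD3A cDNAs in the antibody libraries and 45.4% to 48.5% in the IgG libraries, while they make up 30.5% of positions 19 to 77.

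U8 is encoded by SNORD118 at chr17:8173454-8173587 on the minus strand, inside the 3′ untranslated part of the last exon of TMEM107. Exact matches to U8 elsewhere in the genome ran to at most 33 nt, so that a cDNA of 16 to 34 nt was enough to be unique at positions 0 to 117, counted from the first GENCODE base, which is 1 nt after the first base in RefSeq. The host transcript did not carry the signal: TMEM107 had 1 cDNA outside SNORD118 in the 8 libraries, in the second GAR1 library, and no cDNA was found in the 100 nt downstream of U8. The stretch from position 26 to 55 (chr17:8173533-8173562, minus strand), counted from the first GENCODE base, is printed. It carries the crosslink clusters at 33 to 35 and 45 to 48, in capitals.
SNORD118: gttcctcCTCcggagggcaGATTagaacat
The letters TGATGA, those of a C box, were found at positions 55 to 60, just downstream of these clusters. They occur in 75.3% of 295 SNORD genes searched on the sense strand, and no overlap with another motif was scored. CTGA, the letters of a D box, was found at 116 to 119 and 130 to 133 in the same numbering and occurs in 96.9% of those genes.

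U8 was lowest in the dyskerin libraries, at 749 and 629 CPM, a mean of 689 ± 84.8 (SD, n = 2). Its controls held 867 and 1344 CPM, a mean of 1105.5 ± 338, so that IgG was 1.60 times higher, and the 2 groups did not overlap. The first of these controls rested on 127 cDNAs, with a 95% Wilson interval of 729 to 1031 CPM that contains the higher dyskerin value. The second rested on 11 cDNAs, with an interval of 751 to 2406 CPM that begins just above that value. In the GAR1 libraries U8 stood at 1966 and 2019 CPM, or 1992 ± 37.3, and in their controls at 1788 and 1215, or 1502 ± 405. GAR1 was above both of its controls by 1.33 times in the mean, but the interval of the second control, which had 13 cDNAs, ran from 710 to 2078 CPM. The 2 antibodies were separated most clearly, since U8 was 2.89 times higher in the mean of the GAR1 libraries than in that of the dyskerin libraries. C/D snoRNAs as a class held 4.19% and 3.58% of peak cDNAs with dyskerin and 10.3% and 10.3% with GAR1. U8 made up 1.79% and 1.76% of C/D snoRNA cDNAs with dyskerin and 1.90% and 1.96% with GAR1. The difference was thus shared by the class and not particular to U8. The order of the means was GAR1, GAR1 IgG, dyskerin IgG and dyskerin, in which only the 2 IgG groups had overlapping values.

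U8 (SNORD118) had sites at the 3 places described first here in every library with more than 100 of its cDNAs, as the plot of U8 sites by position shows. The first lay at its 5′ end, where positions 1 to 4 nt before the first GENCODE base held 18.8% and 23.3% of U8 cDNAs with dyskerin and 19.98% and 18.9% with GAR1. The corresponding IgG values were 10.2% and 25.4% in the first libraries of the dyskerin and GAR1 sets. The site is recorded 1 nt upstream of the point where the cDNA stopped, and RefSeq U8 begins 1 nt before the GENCODE base. A cDNA that ran through to the RefSeq first base is therefore recorded 2 nt before the GENCODE base, where 88 and 120 cDNAs lay with dyskerin and 91 and 241 with GAR1, and at that position a contact and a run-through cannot be told apart. The positions 3 and 4 nt before, upstream of the RefSeq start, held 94 and 55 cDNAs in the first dyskerin library, 90 and 60 in the second, 81 and 55 in the first GAR1 library and 299 and 200 in the second. The second place, positions 33 to 35, held 8.75% and 10.6% with dyskerin, 10.6% and 11.96% with GAR1, and 21.3% and 12.7% in the first IgG libraries of the 2 sets. The third, positions 45 to 48, held most, at 45.4% and 37.3% with dyskerin, 38.1% and 38.3% with GAR1, and 54.3% and 42.99% in those controls. Its leading base was 47 for dyskerin, with 232 and 134 cDNAs, and 46 for GAR1, with 155 and 538 cDNAs. However, the second dyskerin library also had more at 46 than at 47 of SNORD118, 174 against 134. Sites were also spread from 13 to 27, which with GAR1 together held more cDNAs than 33 to 35. Position 21 had 22 and 115 cDNAs with GAR1, 14 and 24 with dyskerin and 3 in the first GAR1 IgG library. In the first dyskerin IgG library only position 27 of this stretch had a site, with 1 cDNA. The stretch was not tested.

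**Figure D3:**
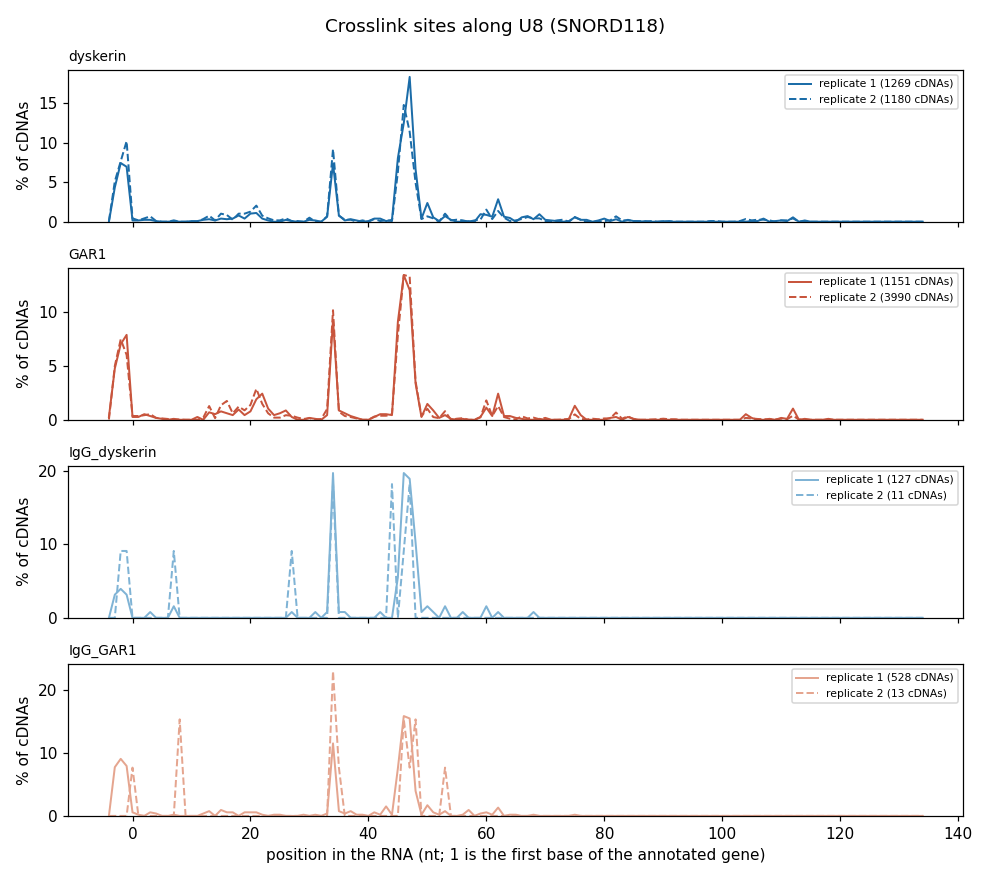
Share of U8 cDNAs (%) at each position of the RNA (nt, from 5 nt before the first GENCODE base) in the libraries of the 4 groups, with solid and dashed lines for the 2 replicates. The clusters at the 5′ end, at 33 to 35 and at 45 to 48 are seen in each group, while the second IgG libraries rest on 11 and 13 cDNAs.

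The 3′ part of U8 separated the antibody libraries from the controls. Positions from 63 to the end held 8.20% and 7.80% of U8 cDNAs with dyskerin and 5.91% and 4.84% with GAR1. In the first dyskerin IgG library they held 1 of 127, or 0.787% (95% Wilson interval 0.139 to 4.33), and in the first GAR1 IgG library 4 of 528, or 0.758% (0.295 to 1.93). The second IgG libraries had 0 of 11, which allows up to 27.3%, and 0 of 13, which allows up to 23.1%. All 4 antibody shares lay above the intervals of the first controls. The window was chosen after the profile had been seen and was not tested, and fewer cDNAs in a library leave fewer weak sites past the call. The part of library size in this was not tested. U8 had 82 and 87 positions called with dyskerin and 74 and 96 with GAR1, against 24 and 51 in the first IgG libraries. The positions shared with IgG still held 89.7% to 92.4% of U8 cDNAs in the antibody libraries.

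U13 had the narrowest profile. SNORD13 lies on chromosome 8 from 33513475 to 33513578 (GRCh38, plus strand), outside any other annotated gene on its strand, and its 104 nt are unique for cDNAs that begin up to position 84. All its cDNAs in the 8 libraries lay between positions 3 and 27. Positions 13 to 16 held 88.7% and 77.2% with dyskerin, 85.2% and 76.8% with GAR1, 87.8% in the first dyskerin IgG library and 81.6% in the first GAR1 IgG library. Position 15, a cytidine, was the leading base in each of the 4 groups, with 171 and 144 cDNAs for dyskerin, 94 and 399 for GAR1, and 19 and 44 in those controls. Uridines held 18.8% and 30.3% with dyskerin and 17.2% and 30.6% with GAR1, while they make up 35.7% of positions 1 to 84. The second dyskerin IgG library differed, with 7 of its 9 cDNAs at positions 17 to 27. The letters TGATGA lie at 23 to 28, downstream of the cluster.

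**Figure D4:**
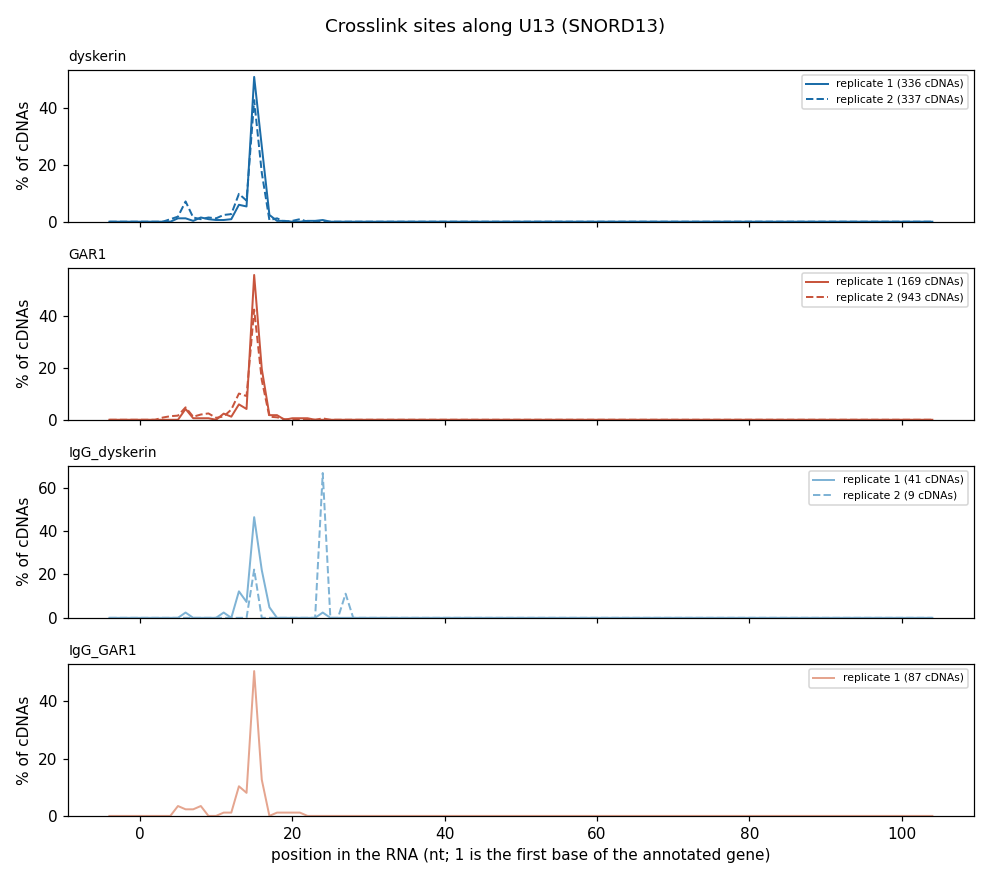
Share of U13 cDNAs (%) at each position of the RNA (nt) in the libraries of the 4 groups, with solid and dashed lines for the 2 replicates. Position 15 leads in all libraries but the second dyskerin IgG library, which has 9 cDNAs, and the second GAR1 IgG library, which has none and is not drawn.

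The level of U13 was 198 and 180 CPM with dyskerin (from 336 and 337 cDNAs), 189 ± 13.2 in the mean. Its controls held 280 CPM from 41 cDNAs and 1100 CPM from 9, or 689.8 ± 579.8. Both dyskerin values lay below both controls. With GAR1, U13 stood at 289 and 477 CPM, or 383 ± 133. The first GAR1 control held 295 CPM from 87 cDNAs, and the second held 0 of 10701, which allows up to 280 CPM, so the GAR1 libraries overlapped their controls. U13 was 2.03 times higher in the mean of the GAR1 libraries than in that of the dyskerin libraries, and these 2 groups did not overlap. The order of the means was dyskerin IgG, GAR1, dyskerin and GAR1 IgG. The values of dyskerin IgG and GAR1 overlapped, and those of GAR1 IgG overlapped with each of the other groups.

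Because a scaling factor cancels in a ratio of 2 RNAs of the same library, U8 was also set against SNORD3A. There were 0.141 and 0.0977 U8 cDNAs per SNORD3A cDNA with dyskerin, 0.0535 and 0.0567 in its controls, 1.46 and 0.745 with GAR1, and 0.742 and 0.260 in its controls. U8 was thus about as frequent as alignable SNORD3A with GAR1 and far below it with dyskerin. The dyskerin libraries lay above their own controls, of which the second rested on 11 U8 cDNAs. For GAR1 the lower library and the higher control were nearly equal, at 0.745 and 0.742. U8 exceeded U13 by 3.78 and 3.50 times with dyskerin, 6.81 and 4.23 times with GAR1, 3.10 and 1.22 times in the dyskerin IgG set and 6.07 times in the first GAR1 IgG library.

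Per 100 nt of RNA, SNORD3A stood at 2440 and 2967 CPM with dyskerin and at 622 and 1250 CPM with GAR1. This made it rank 2 and rank 1 among the C/D snoRNAs with a site in the 2 dyskerin libraries (173 and 170 genes) but 71 and 35 in the GAR1 libraries (179 and 190 genes). It ranked 1 in both dyskerin IgG libraries (120 and 54 genes) while its rank was 32 in the first GAR1 IgG library (162 genes) and 4 in the second (62 genes). These densities divide by all 217 nt. Over the 70 positions that could be aligned SNORD3A stood at 7564 and 9197 CPM per 100 nt with dyskerin and 1928 and 3873 with GAR1, above U8 in all 4 libraries, and the ranks depend on this choice, which was not made for the other genes. U8 ranked between 21 and 30 in all 8 libraries. Per 100 nt it stood at 547 and 459 CPM with dyskerin and 1435 and 1474 CPM with GAR1. U13, at 191 and 173 CPM with dyskerin and 278 and 459 CPM with GAR1, was near the median C/D snoRNA, which stood at 142 and 127 CPM and at 383 and 382 CPM per 100 nt. The 7 genes together held 15.2% and 20.7% of C/D snoRNA cDNAs with dyskerin, 3.53% and 5.16% with GAR1, 39.1% and 39.7% in the dyskerin IgG set and 5.78% and 12.6% in the GAR1 IgG set.

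Neither antibody raised a gene of this group past the test against its IgG. For dyskerin against IgG, edgeR's quasi-likelihood test called 0 of the 7 genes, and the background was 0% of the 6479 genes tested, although 1469 genes above and 7 below their IgG level had p under 0.05 before adjustment. The log2 fold change was -1.30 (SE 1.41, adjusted p = 0.70) for SNORD3A, -0.20 (SE 1.58, adjusted p = 0.98) for SNORD118 and -0.98 (SE 2.13, adjusted p = 0.91) for SNORD13, in the edgeR fit. The median of all genes was 2.01, so SNORD3A, SNORD118 and SNORD13 lay at -3.31, -2.21 and -2.99 relative to it on the log2 scale. DESeq2 called 0 of the 7 genes as well, and gave 0.10 for SNORD118, the opposite sign. By CPM, SNORD3A, SNORD3C, SNORD118 and SNORD13 had both dyskerin values below both IgG values, 4 of 7 genes against 1.42% of all genes, while none had both above, against 70.3% of all genes. For SNORD3C the higher dyskerin value was 66.1 CPM. Its first control held 68.3 CPM from 10 cDNAs (Wilson interval 37.1 to 126 CPM), and its second held only 3 cDNAs. For SNORD118 the interval of the first control, 729 to 1031 CPM, contained the higher dyskerin value of 749 CPM. The order of these genes was thus within counting error. For SNORD3A and SNORD13 the intervals of both controls lay above both dyskerin values. For SNORD13, however, the interval of the first dyskerin library, 178 to 221 CPM, overlapped that of the first control, 206 to 380 CPM.

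For GAR1 against IgG, edgeR again called 0 of the 7 genes, with a background of 0% and an unadjusted p under 0.05 for 943 genes higher and 8 lower, and DESeq2 also called none of the 7. The log2 fold change was 3.79 (SE 1.55) for SNORD3A, 4.46 (SE 1.82) for SNORD118 and 5.23 (SE 2.50) for SNORD13, with adjusted p-values of 0.31, 0.31 and 0.32 by edgeR. Those sizes came from the TMM factors, which were 0.374 and 0.0686 for GAR1 and 1.54 and 3.06 for its controls. With total peak cDNAs as the scale they were -0.79, 0.40 and 1.05, so the direction of SNORD3A turned. Without the first GAR1 library, edgeR called 4 of the 7 genes, SNORD3A (log2 fold change 4.66, adjusted p = 0.0019), SNORD118 (5.22, adjusted p = 0.013), SNORD3B-1 and SNORD3B-2. In that fit 798 of 6449 genes were called higher, and the lone GAR1 library was assumed to vary like the other groups. By CPM, SNORD118, SNORD3B-1, SNORD3B-2 and SNORD3C had both GAR1 values above both IgG values, against 10.5% of all genes, and none had both below, against 0.633%. The last 3 of these genes were at 0 in the second GAR1 IgG library, where 0 allows up to 280 CPM. In the first GAR1 library SNORD3B-2 had 8 cDNAs (13.7 CPM) and SNORD3C had 14 (23.9 CPM). Their first control held 3 and 6 cDNAs, with Wilson intervals of 3.46 to 29.9 and 9.31 to 44.3 CPM that contain those values. The summed U3 was lower with GAR1 in the mean, at 2112 against 3557 CPM.

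Between dyskerin and GAR1, which shared no library, edgeR called U8 and no other gene of the 7. SNORD118 had a log2 fold change of -5.10 (SE 1.88, adjusted p = 0.041), lower with dyskerin. C/D snoRNAs as a class also held a smaller share of the dyskerin libraries than of the GAR1 libraries, as given above. The background was 52.1% of all genes called, 47.7% higher and 4.32% lower with dyskerin, and the median of all genes was 5.57. SNORD3A had -2.33 (SE 1.46, adjusted p = 0.16) and SNORD13 -4.80 (SE 2.45, adjusted p = 0.082). The call for U8 rested on the scaling, since total peak cDNAs gave -1.53 (adjusted p = 0.23 by edgeR) and DESeq2 gave 0.58 (adjusted p = 0.66), a turned sign. SNORD3A turned to higher with dyskerin, with 1.53 (adjusted p = 0.066) on total peak cDNAs and 3.63 (adjusted p = 0.014) by DESeq2, and SNORD13 had -1.02 and 1.10 under those scalings, as the plot of the comparisons under 3 scalings shows. The call for U8 was also lost without either dyskerin library (adjusted p = 0.24 and 0.26) and without the second GAR1 library (0.15), with the replicate number as a block (0.45), without a filter on low counts (0.092) and with at least 50 counts in 2 libraries (0.079), all by edgeR. Measured from the median of all genes with TMM, total peak cDNAs and DESeq2, SNORD118 lay at -10.67, -8.09 and -7.996 log2 units. SNORD13 lay at -10.37, -7.58 and -7.47, and SNORD3A at -7.89, -5.03 and -4.94. A scaling factor largely cancels in this measure, so a shared order under the scalings adds little. The median also depends on the filter, which many genes passed only through the dyskerin libraries. Without the first or the second of these, 2170 and 2154 genes were tested, with medians of 2.95 and 2.83 by edgeR. The shares of all genes given here include such genes. By CPM, SNORD3A, SNORD3B-1 and SNORD3D had both dyskerin values above both GAR1 values, against 91.3% of all genes. SNORD118, SNORD13 and SNORD3B-2 had both below, against 6.58%. SNORD3D passed the filter only through the dyskerin libraries, where it had 14.8 and 9.60 CPM, and was at 0 in both GAR1 libraries, so its difference follows from how it entered.

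**Figure D5:**
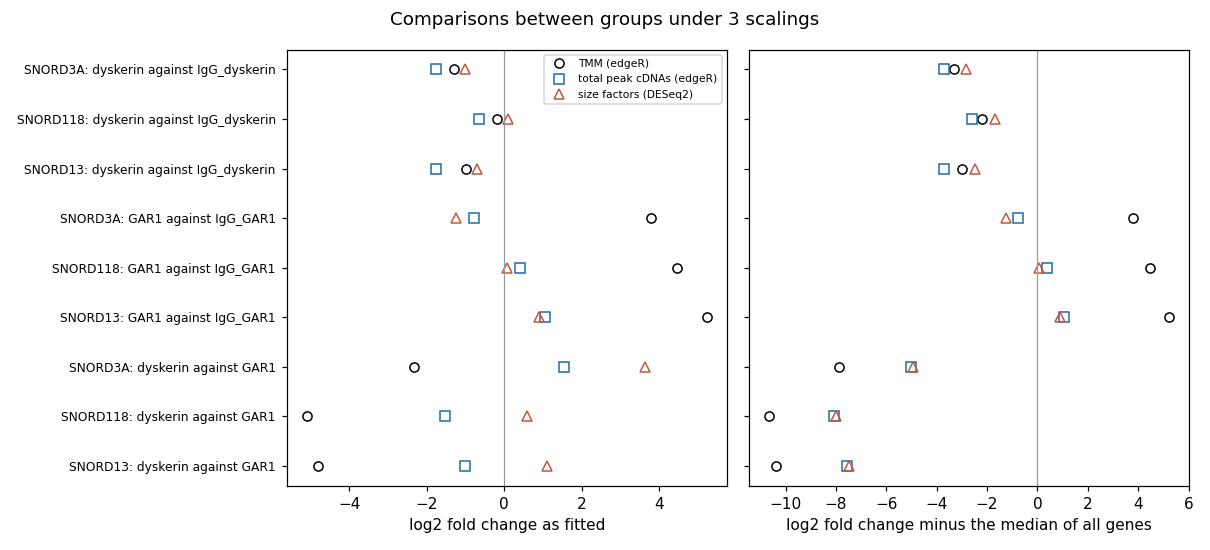
Log2 fold changes of SNORD3A, SNORD118 and SNORD13 in the 3 comparisons, as fitted (left) and minus the median of all genes (right), with TMM in edgeR (circles), total peak cDNAs in edgeR (squares) and DESeq2 size factors (triangles). The signs of all 3 RNAs in dyskerin against GAR1 depend on the scaling at the left. At the right all 3 RNAs lie below 0 in that comparison under each scaling. A scaling factor largely cancels there, and many genes behind the median passed the filter only through the dyskerin libraries.

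The difference between dyskerin over its IgG and GAR1 over its IgG passed for none of the 7 genes in edgeR (smallest adjusted p = 0.68), with 2 of them under an unadjusted p of 0.05, and DESeq2 called none. Without the first GAR1 library it passed for SNORD3A alone, at -5.96 (adjusted p = 0.0056), beside 101 of 6449 genes called lower, with the same assumption about the lone GAR1 library. An exact two-sided permutation test compared the 4 antibody libraries with the 4 IgG libraries over 70 arrangements, in which p cannot fall below 0.0286. U3 held 0.406% of peak cDNAs with antibodies and 1.19% with IgG (exact permutation p = 0.29, adjusted over the 3 RNAs 0.86). U8 held 0.134% and 0.130% (exact permutation p = 0.94, adjusted 0.94), and U13 0.0286% and 0.0419% (exact permutation p = 0.77, adjusted 0.94). Because it pools both proteins, this test says nothing about either of them alone.

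The share of cDNAs in the first of 3 equal parts of each RNA was tested in the same way. U8 had 22.04% and 32.4% of its cDNAs there with dyskerin, 35.4% and 38.9% with GAR1, and 29.8%, 31.98% and 50% in the 3 IgG libraries with at least 10 cDNAs within the RNA, and the groups overlapped (exact permutation p = 0.57, adjusted 0.57, with 0.0571 the smallest p that 4 against 3 allow). U3, whose share is set by what can be aligned, had 91.8% to 95.3% with antibodies and 94.0% to 100% with IgG (exact permutation p = 0.17, adjusted 0.34). With each site counted once these U3 shares were 83.6% and 93.6% in the mean and did not overlap (exact permutation p = 0.0286, the smallest possible, adjusted 0.0571). U13 had 100% in each of the 6 libraries with at least 10 cDNAs, of which 2 were controls, so no test was made.

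Other RNAs of ribosomal precursor cleavage were, like U8, lower with dyskerin than with GAR1 in CPM. They were the C/D snoRNAs SNORD14A to SNORD14E and SNORD22, the H/ACA snoRNAs SNORA73A, SNORA73B, SNORA62 and SNORA63, of which the former pair is known as U17, and RMRP, the RNA of RNase MRP. All 11 were tested, and none was called by edgeR against IgG for dyskerin or for GAR1. For dyskerin against IgG, 3 of the 11 had both values above both controls, beside 70.3% of all genes, and 1 had both below, as U8 did. In dyskerin against GAR1, 7 of 11 were called lower with dyskerin, beside 4.32% of all genes, and all 11 had both dyskerin CPM values below both GAR1 values. The 7 were SNORD14C, SNORD14E, SNORD22, SNORA73A, SNORA73B, SNORA62 and SNORA63. All of the 11 but RMRP are snoRNAs, and both snoRNA classes were lower with dyskerin. H/ACA snoRNAs held 11.5% and 14.6% of peak cDNAs with dyskerin and 71.2% and 69.8% with GAR1. C/D snoRNAs held 4.19% and 3.58% with dyskerin and 10.3% and 10.3% with GAR1. The order was thus not particular to RNAs of precursor cleavage. SNORD22 had 620 ± 97.7 CPM with dyskerin and 2236 ± 141 with GAR1 (adjusted p = 0.041 by edgeR), near the U8 values. The H/ACA RNA SNORA73A had 7074 ± 203 and 38769 ± 10498 CPM (adjusted p = 0.0011 by edgeR). The median log2 fold change of the 11 was -5.12 with TMM and -1.35 with total peak cDNAs, beside 5.57 and 6.56 for all genes.

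The mRNAs of C/D and U3 particle proteins had sites mainly in the dyskerin libraries, as most genes did. Of 25 on the list, 18 passed the filter, each through the dyskerin libraries, so that a higher value with dyskerin follows from how they entered. In dyskerin against GAR1 edgeR called 11 of the 18 higher, beside 47.7% of all genes, and none lower, and all 18 had both dyskerin CPM values above both GAR1 values, beside 91.3%. Their median log2 fold change was 6.30, beside 5.57 for all genes. The 11 were NOP58, a core C/D protein, RRP9 and MPHOSPH10 of the U3 particle, TGS1, which forms the trimethyl cap, the assembly factors RUVBL1, RUVBL2 and ZNHIT6, and NOP14, UTP6, WDR3 and NOL11 of the precursor-processing complex, and all 11 were at 0 in both GAR1 libraries. NOP58 had 222 and 356 CPM with dyskerin, 287 CPM in the first dyskerin IgG library and 0 in the second. MPHOSPH10 had 103 and 171 CPM with dyskerin, 88.7 CPM in the first dyskerin IgG library and 0 in the second. For NOP58 and MPHOSPH10 the level in the larger control was thus near that of dyskerin. Of the 11, RRP9, RUVBL1, RUVBL2, NOP14 and NOL11 were at 0 in both dyskerin IgG libraries, where 0 allows up to 20.5 and 367 CPM. NOP14, for example, had 63.2 and 98.6 CPM with dyskerin. By CPM, 10 of the 18 had both dyskerin values above both controls, beside 70.3% of all genes, and 0 had both below. None of the 18 was called against IgG for either protein. The edgeR calls of higher genes depended on both GAR1 libraries, since 0 of 6449 genes were called higher without the first and 1 of 6391 without the second, against 3093 of 6479 with both. NAT10, which acts with U13, had 89.6 ± 32.4 CPM with dyskerin and was not called in any comparison (adjusted p = 0.29 by edgeR for dyskerin against GAR1).

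The genes closest to each RNA across the 8 libraries were found by the root mean square difference of centred log2(CPM + 1) values, as a description. U8 had the closest neighbours, with SNORA5C at 0.17, SNORD35A and SNORD24 at 0.21 and SNORA25 and SNORD22 at 0.27 log2 units. The nearest to U3 were MT-RNR2, the large mitochondrial ribosomal RNA, at 0.69, the U1 variant RNVU1-28 at 0.77, the nuclear lncRNA MALAT1 at 0.91, SCARNA5 at 1.02 and RNU6-4P at 1.06. U13 was nearest to SNHG22 (0.35), NTAQ1 (0.45), SNORA11F (0.50), SNORA36C (0.57) and SNORA11G (0.57). U3 differed from U8 by 1.70 and from U13 by 2.96 on this measure, and U8 from U13 by 2.86, a distance to which the 0 in the second GAR1 IgG library contributes.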

How the data were processed

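Peaks of 8 iCLIP libraries were used as the authors deposited them, as cDNA counts per significant crosslink site, not normalized. Per the methods and the submitters' processing notes, reads were trimmed with Cutadapt, aligned end to end to GRCh38 with STAR 2.7.0e (FastQC 0.11.9), and sites called per library with iCount, which kept multiply aligned reads. The cluster files were not used. Sites were assigned by strand to GENCODE 44 plus 93 RefSeq snoRNAs on the strand of the enclosing gene (12 without a single strand were left out), with short RNAs first. The members, lists and named genes (the 7 genes, 11 RNAs and 25 mRNAs, overlapping genes, the 5 nearest genes and the top position per group) were chosen with earlier results of these data known. Where a listed symbol names several genes, that with most cDNAs was used. Counts were tested with edgeR 4.0.16 (R 4.3.3), TMM, 4 groups in 1 fit with 4 residual degrees of freedom, Benjamini-Hochberg adjusted over 6479 genes, all two-sided, and with DESeq2 1.42.0. Permutation tests used scipy 1.17.1. Alternatives changed the scaling, filter, ends, site weights, U3 copies and libraries. The edgeR step was tested on simulated data. Intervals and limits from 0 counts (3 counts per library) cover counting error only.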

Additional observations from a re-analysis of the deposited data

Results flagged for a closer look

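GENCODE holds 79 further genes named as U3 or U8 copies, which the comparisons above do not use. In the GAR1 libraries their sites summed to 33.6 CPM in the mean, 30.7 and 36.4, whereas both of its IgG libraries had 0, which allows up to 10.2 and 280 CPM. Most of these cDNAs, 18 of 18 and 55 of 72, lay in a single U8 copy, ENSG00000200496. In the dyskerin libraries the copies held 12.4 and 16.5 CPM, below the 20.5 CPM that a count of 0 allows in the larger of its IgG libraries. Reads of near-identical copies can be shared, and their part in these values was not tested.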

How the results depend on the processing

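The count of the 7 genes called stayed at 0 for dyskerin against IgG under each alternative run, and at 0 for GAR1 against IgG except without the first GAR1 library (0 to 4 over the libraries left out). For the difference between the 2 proteins over their IgG it ran from 0 to 1. For dyskerin against GAR1, 1 gene was called, against 0 without a filter, 0 with at least 50 counts, 2 with exact annotated ends, 2 with sites of at least 3 cDNAs, 5 with each site counted once, and 0 to 2 over the libraries left out (0 without either dyskerin library or the second GAR1 library, and 2 without the first GAR1 library or either dyskerin IgG library, SNORD118 being among the 2). With the replicate number as a block, 0 were called. Correlations of the deviations between replicates ran from -0.14 to 0.099 over pairs of groups, so no pairing by replicate number was seen. They cannot tell whether libraries of the same number were made together. The block changed no other count of the 7 genes. DESeq2 and total scaling called 1 each, SNORD3A and SNORD3D in place of SNORD118. Over all genes, calls ran from 0 to 796 higher and 0 to 8 lower for dyskerin against IgG, from 0 to 798 and 0 to 24 for GAR1 against IgG, from 0 to 5859 and 0 to 459 for dyskerin against GAR1, and from 0 to 183 and 0 to 101 for the difference. DESeq2 called 107 and 21 for GAR1 against IgG and 3411 and 0 for dyskerin against GAR1.

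Directions turned as follows. SNORD118 in dyskerin against IgG was 0.10 by DESeq2, 0.29 with sites of at least 3 cDNAs and -2.51 to 0.79 over the libraries left out, positive without the first dyskerin IgG library. SNORD3A in GAR1 against IgG was -1.25 by DESeq2, -0.79 with total scaling, -1.08 with at least 50 counts, -1.21 with each site once, and -0.86 to 4.66 over the libraries left out, negative without either dyskerin library. SNORD3A in dyskerin against GAR1 was 3.63, 1.53, 0.74 and, with sites of at least 3 cDNAs, 2.19, and -3.20 to 0.40 over the libraries left out, positive without the second GAR1 library. By DESeq2, SNORD118 and SNORD13 were 0.58 and 1.10 there. The U8 share difference between antibodies and IgG, 0.0037 percentage points, was -0.00097 with exact ends, -0.109 with each site once and -0.0189 to 0.0274 over the libraries left out, negative without either GAR1 library or the first dyskerin IgG library. That of U13 ran from -0.0272 to 0.00945, positive without the second dyskerin IgG library. The cause was not tested. The share of U3 ran from -1.10 to -0.378 over the libraries left out. For the first of 3 equal parts of the RNA, the U3 difference of -2.50 was -10.01 with each site counted once and -0.943 for the 5′ one of 2 equal parts, both at the smallest possible p of 0.0286 (adjusted 0.0571). That of U8 ran from -7.32 to -1.71 over the libraries left out, in a design whose smallest p is 0.0571. For the 5′ one of 2 equal parts the U8 difference was -6.11, with 93.4% for antibodies and 99.5% for IgG. It stood at that smallest p (exact permutation p = 0.0571, adjusted 0.0571). The second GAR1 IgG library, 1 of the 3 controls there, had 13 U8 cDNAs in all. For U8 the share in the first of 3 equal parts gave no value with at least 50 cDNAs required. Nor did it without any 1 of the 3 IgG libraries used, since only 2 controls were left. For U13 that share was not run. The second IgG libraries, with 8183 and 10701 cDNAs, limit what the comparisons with IgG can show.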
